A study of Homo sapiens with 8 samples.

Results

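The growth factor receptor tyrosine kinases described here were EGFR, ERBB2, ERBB3, FGFR1, PDGFRA, PDGFRB, MET, MST1R, AXL and IGF1R. Their members were all probe sets annotated to 1 of these 10 genes and to no other, which gave 41 of the 54613 probe sets tested, where 19775 genes had at least 1 probe set of their own. EGFR had 9 probe sets, FGFR1 7, ERBB3 5, IGF1R 5, PDGFRA 4, MET 4, ERBB2 3, AXL 2, PDGFRB 1 and MST1R 1. A probe set is a group of short oligonucleotides on the array that reads a stretch of a transcript, and each was kept apart because those of 1 gene can read different stretches.

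RNA from prostate cancer cells was hybridised to 8 Affymetrix arrays, 1 per sample. The EMT group (3 arrays: PC3-EMT1, PC3-EMT12, PC3-EMT14) consists of mesenchymal lines isolated after PC3-Epi cells had been grown with human macrophages, and PC3-Epi (1 array) is the luciferase-expressing population of the PC3 line, picked for its light signal and epithelial shape, from which they came. For PC3-EMT1 and PC3-EMT14 there were further arrays of cells transduced by lentivirus with a shRNA against ZEB1 (sh4, 2 arrays) or with a scrambled shRNA (Scr, 2 arrays). PC3-EMT12 had no transduced array here. All cells carried the luciferase marker, were kept in medium with 5% serum per the labels and were left to recover for 2 days before RNA was taken. No label describes replicate cultures, so p-values speak only for the scatter among these arrays. Within a group each array is of a different line, so that scatter is between lines and includes any technical scatter. Spread between cultures of 1 line was not measured. Bulk RNA was measured, so fewer cells that express a gene and less of its RNA per cell cannot be told apart.

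Receptor tyrosine kinases are cell surface proteins that work in pairs. When a growth factor binds, they phosphorylate each other and pass the signal through adaptors to the RAS-MAP kinase and PI3K-AKT routes. EGFR, ERBB2 and ERBB3 bind or respond to ligands of the EGF and neuregulin families, FGFR1 binds fibroblast growth factors, MET binds HGF, MST1R binds the related MST1, AXL binds GAS6, IGF1R binds insulin-like growth factors, and PDGFRA and PDGFRB bind platelet-derived growth factors. ERBB3 and MST1R are known chiefly from epithelia, and the PDGF receptors from mesenchymal cells. ZEB1 is a transcriptional repressor of epithelial genes that is active in the epithelial-to-mesenchymal transition.

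The 2 kinds of array, untransduced and transduced, were not on the same scale, with medians of 4.33 to 4.35 (untransduced) and 6.19 to 6.23 (transduced) on the log2 scale, so values were compared only within a set of 4 arrays. The highest of 27 bacterial control probe sets, which have no target in human RNA unless it is added, stood at 4.56 in the untransduced and 6.00 in the transduced set and is called the control level below. ZEB1, the gene targeted by sh4, stood at 9.12 in sh4 and 9.87 in Scr cells of PC3-EMT1, and at 9.01 in sh4 and 10.08 in Scr cells of PC3-EMT14. E-cad (CDH1), the epithelial adhesion protein, stood at 3.08, 3.61 and 4.00 in the EMT lines and 11.31 in PC3-Epi, and it differed by 4.02 and 3.85 between sh4 and Scr in the 2 lines. None of 9 macrophage markers and none of 7 fibroblast and stromal markers passed limma's test between EMT lines and PC3-Epi (0 and 1 at an unadjusted p under 0.05), and 8 and 5 of them lay under the control level on every untransduced array. On the log2 scale the summed macrophage markers came to 6.99 to 7.04 in the EMT lines and 6.90 in PC3-Epi, and the summed fibroblast and stromal markers to 7.27 to 7.45 in the EMT lines and 7.22 in PC3-Epi.

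The first comparison asked which receptors differ between the mesenchymal lines and the epithelial cells they came from. ERBB3 and EGFR fell in all 3 EMT lines and FGFR1 rose in all 3, each by 2-fold or more on several probe sets. Smaller differences that passed the test were a rise of AXL and falls of MST1R and of 1 IGF1R probe set. None of the 12 probe sets of MET, ERBB2, PDGFRA and PDGFRB passed, which does not show that these receptors were unchanged. In all, 9 of 41 member probe sets were called lower and 5 higher by limma at an adjusted p of 0.05, where 7.45% of all probe sets tested were lower and 4.39% higher. When all 3 lines had to differ from PC3-Epi by at least 2-fold and the same way, 5 were lower and 3 higher, where 2.56% and 1.04% of all probe sets were. The median difference over the 41 member probe sets was 0.00 on the log2 scale, against 0.06 over all probe sets.

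The level of a probe set set a limit on what could be seen. On the untransduced arrays 24 member probe sets lay above the control level on all 4 arrays, 1 on some and 16 on none, and all 14 calls were among the 24. The 16 under the control level differed by -0.22 to 0.85 and give no usable level for their transcripts. PC3-Epi had 1 array, whose spread was taken to equal that of the EMT lines. Leaving out PC3-EMT14 left 2 calls, both of ERBB3, out of 747 over all probe sets. Without PC3-EMT1 there were 8 member calls out of 2579 over all probe sets, and without PC3-EMT12 13 out of 5330. Each of these fits kept 2 EMT arrays and had fewer degrees of freedom than the main fit. The 14 called differences moved by at most 0.083 on the log2 scale without PC3-EMT14. Why the counts differed with the line left out was not tested.

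**Figure D1:**
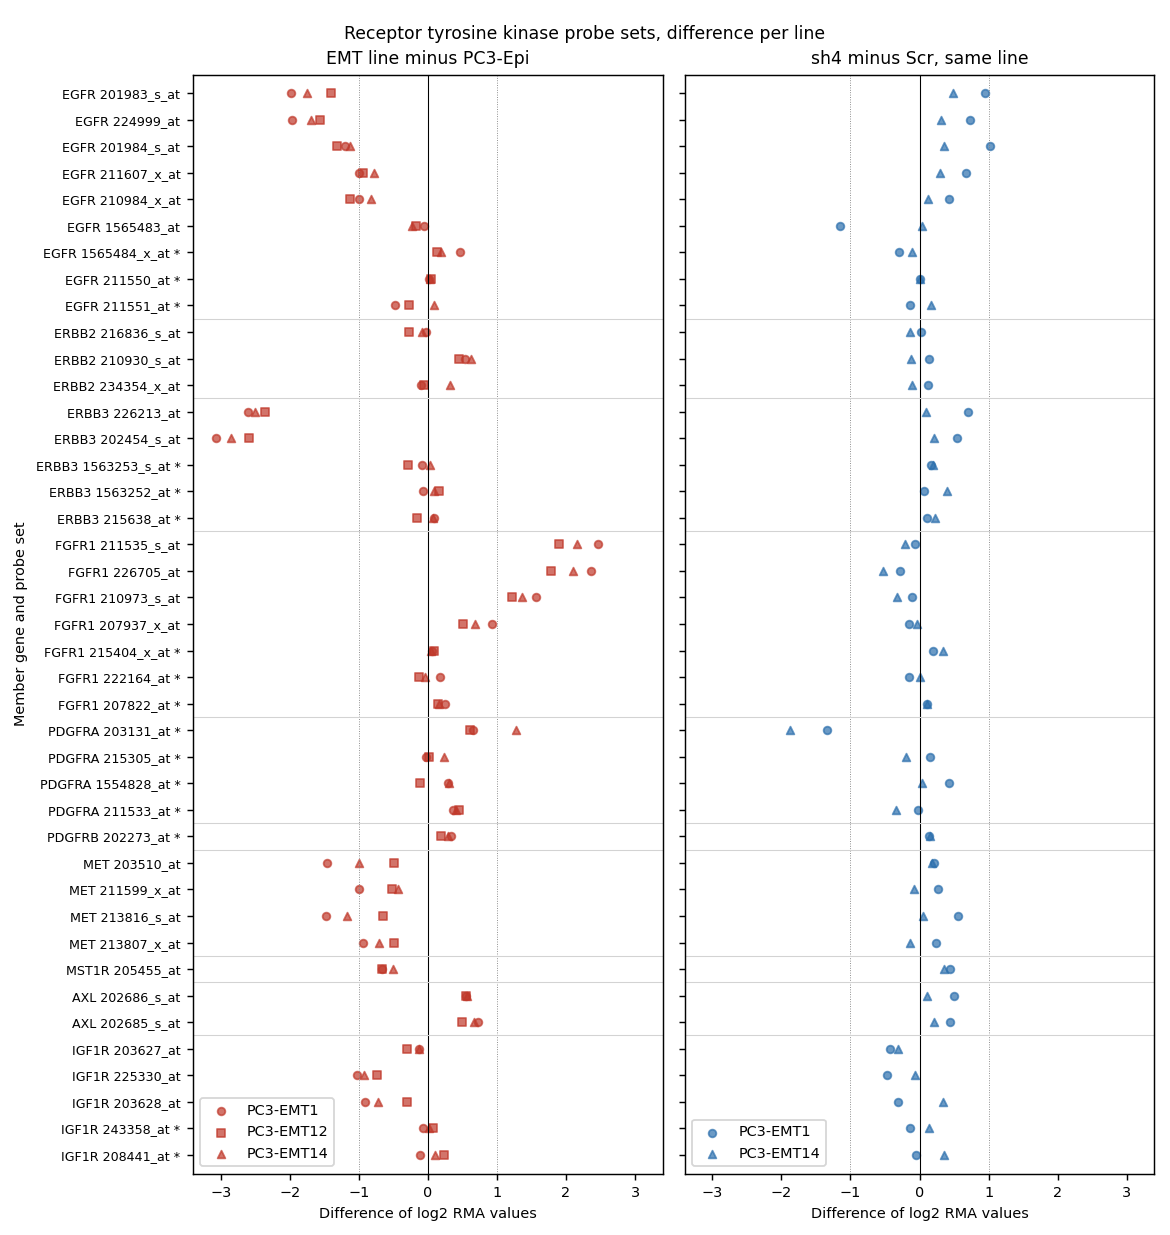
Difference of log2 RMA values (x axis) for each of the 41 member probe sets (rows, by gene, the brightest at the top of each gene). The left panel gives each EMT line minus PC3-Epi and the right panel sh4 minus Scr within a line; symbols mark the line, dotted lines mark a 2-fold difference and asterisks mark probe sets under the control level on all untransduced arrays. The 3 lines fall together at -2.36 or below for the 2 bright ERBB3 probe sets and at 1.79 or above for the 2 brightest FGFR1 probe sets, while in the right panel PDGFRA 203131_at alone lies beyond the 2-fold line in both lines.

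ERBB3 (chr12:56080108-56103505, GRCh38.p14), a receptor with little kinase activity of its own that signals by pairing with other ERBB members, had the largest differences among the members. Probe set 202454_s_at stood at 4.89, 5.37 and 5.11 in the EMT lines 1, 12 and 14 and at 7.96 in PC3-Epi. Its EMT values were close to the control level, and the 3 lines lay well apart from PC3-Epi. It fell by 2.84 ± 0.20 on the log2 scale, a 7.15-fold difference (SE from limma, n = 3 EMT lines and 1 PC3-Epi array, adjusted p = 0.000761). The brighter 226213_at stood at 7.24, 7.49 and 7.34 in the EMT lines and 9.85 in PC3-Epi. Its fall of 2.49 ± 0.16 was 5.63-fold (limma, adjusted p = 0.000467). The other 3 ERBB3 probe sets lay under the control level on all untransduced arrays and differed by -0.12, 0.06 and 0.00.

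EGFR (chr7:55019017-55211628), the receptor for EGF and TGFA, fell on 5 of its 6 probe sets above the control level. Probe set 201983_s_at stood at 8.04, 8.61 and 8.26 in the EMT lines 1, 12 and 14 and at 10.01 in PC3-Epi. It fell by 1.71 ± 0.23, or 3.28-fold (limma, adjusted p = 0.00669). Probe set 224999_at gave 7.83, 8.23 and 8.11 in the EMT lines and 9.79 in PC3-Epi, and it fell by 1.74 ± 0.19 (limma, adjusted p = 0.00345). On both probe sets PC3-EMT1 was the lowest of the lines and PC3-EMT12 the highest, and all 3 lay under PC3-Epi by 1.41 or more. Probe set 201984_s_at fell by 1.22 ± 0.15, and the dimmer 211607_x_at and 210984_x_at fell by 0.90 ± 0.15 and 0.99 ± 0.17. The sixth, 1565483_at, stood at 4.58 to 4.75 in the EMT lines and 4.81 in PC3-Epi, just above the control level, and did not pass (difference -0.16 ± 0.15, limma adjusted p = 0.563). The 3 EGFR probe sets under the control level differed by 0.26, 0.02 and -0.22.

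ERBB2 (chr17:39688094-39728658), the ERBB member that binds no ligand and serves as a partner for the others, showed no such difference. Its bright probe set 216836_s_at stood at 8.54, 8.29 and 8.47 in the EMT lines and at 8.57 in PC3-Epi, a difference of -0.13 ± 0.16 (limma, adjusted p = 0.661). PC3-EMT1 and PC3-EMT14 lay within 0.10 of PC3-Epi. Probe set 210930_s_at, at 4.55 to 4.71 in the EMT lines and 4.09 in PC3-Epi, differed by 0.54 ± 0.15 (limma, adjusted p = 0.0618), and 234354_x_at by 0.05 ± 0.20. The first of these dim probe sets lay above the control level only in PC3-EMT1 and PC3-EMT14. It stayed in the test that left out dim probe sets only through these EMT arrays, so its pass there (limma, adjusted p = 0.0493) is no evidence of a rise.

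FGFR1, a receptor for fibroblast growth factors that needs heparan sulfate as a partner, was the member that rose most. Probe set 211535_s_at stood at 8.77, 8.21 and 8.46 in the EMT lines 1, 12 and 14 and at 6.31 in PC3-Epi. The rise of 2.17 ± 0.22 was 4.51-fold (limma, adjusted p = 0.00275). Probe set 226705_at gave 8.35, 7.77 and 8.09 in the EMT lines and 5.99 in PC3-Epi, a rise of 2.08 ± 0.23, and 210973_s_at gave 7.07, 6.73 and 6.87 in the EMT lines and 5.51 in PC3-Epi, a rise of 1.38 ± 0.17. PC3-EMT1 was the highest line and PC3-EMT12 the lowest on all 3 probe sets. Another probe set above the control level, 207937_x_at, differed by 0.70 ± 0.19 (limma, adjusted p = 0.0614), with 0.93, 0.51 and 0.68 in the 3 lines. The remaining 3 lay under the control level and differed by 0.06, 0.00 and 0.18.

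**Figure D2:**
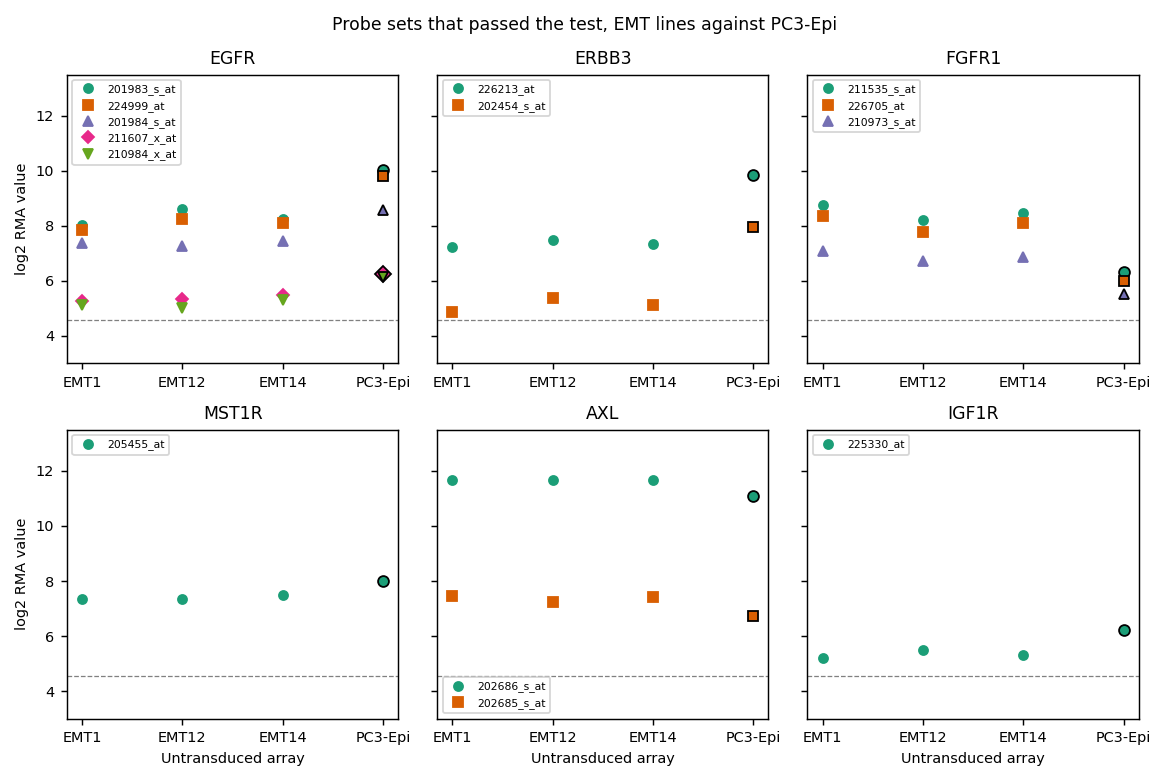
Log2 RMA value (y axis) on each untransduced array (x axis) for the 14 member probe sets that passed the test, with 1 panel per gene and black outlines marking PC3-Epi. The dashed line is the control level of 4.56. ERBB3, EGFR, MST1R and IGF1R stand lower in all 3 EMT lines than in PC3-Epi, and FGFR1 and AXL stand higher.

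AXL (chr19:41219223-41261766), the receptor for GAS6 that is often noted in mesenchymal carcinoma cells, was bright in every sample and rose a little. Probe set 202686_s_at stood at 11.66, 11.66 and 11.68 in the EMT lines 1, 12 and 14 and at 11.11 in PC3-Epi. The 3 lines differed by no more than 0.02 from each other and by 0.55 or more from PC3-Epi. The rise was 0.56 ± 0.14, or 1.47-fold (limma, adjusted p = 0.0465). Probe set 202685_s_at gave 7.47, 7.23 and 7.40 in the EMT lines and 6.74 in PC3-Epi, a rise of 0.63 ± 0.16 (limma, adjusted p = 0.0494). Both calls lay at the edge of the threshold, and leaving out any of the 3 EMT lines took both over it (adjusted p of 0.0518 to 0.206).

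MST1R (chr3:49887002-49903873), the receptor for macrophage-stimulating protein and a close relative of MET, has 1 probe set, 205455_at. It stood at 7.34, 7.34 and 7.50 in the EMT lines and at 8.01 in PC3-Epi. The lines lay together and 0.50 or more under PC3-Epi, a fall of 0.61 ± 0.15 or 1.53-fold (limma, adjusted p = 0.045). It too lost its call when any EMT line was left out (adjusted p of 0.086 to 0.143).

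MET (chr7:116672196-116798377), the receptor for hepatocyte growth factor, differed in the same direction on all 4 probe sets but unevenly between lines. Probe set 203510_at stood at 9.82, 10.79 and 10.28 in the EMT lines 1, 12 and 14 and at 11.28 in PC3-Epi. The difference was -0.98 ± 0.34 (limma, adjusted p = 0.114), with PC3-EMT1 lowest at -1.46 and PC3-EMT12 nearest to PC3-Epi at -0.49. Probe set 213816_s_at stood at 6.34, 7.16 and 6.65 in the EMT lines and 7.82 in PC3-Epi (difference -1.10 ± 0.29, limma adjusted p = 0.059). It passed without PC3-EMT12 (adjusted p = 0.0301), and it and 213807_x_at passed when dim probe sets were left out (adjusted p of 0.0458 and 0.0491). Probe sets 213807_x_at and 211599_x_at differed by -0.71 ± 0.20 and -0.65 ± 0.24.

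IGF1R (chr15:98648539-98964530), the receptor for IGF1 and IGF2, fell on 1 of its 3 probe sets above the control level. Probe set 225330_at stood at 5.19, 5.49 and 5.30 in the EMT lines and 6.23 in PC3-Epi, a fall of 0.90 ± 0.17 (limma, adjusted p = 0.0193). It lost its call without PC3-EMT1 (adjusted p = 0.0658) or PC3-EMT14 (0.130). The brightest, 203627_at, stood at 6.32, 6.15 and 6.33 in the EMT lines and 6.46 in PC3-Epi, a difference of -0.19 ± 0.15 (adjusted p = 0.483), so the probe sets of this gene did not give 1 size of change. Probe set 203628_at differed by -0.65 ± 0.24 (limma, adjusted p = 0.139) and passed without PC3-EMT12 (adjusted p = 0.0499).

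PDGFRA (chr4:54229293-54298245) and PDGFRB (chr5:150113839-150155845), the receptors for platelet-derived growth factors, lay under the control level on all 4 untransduced arrays, so no fold is given for them. PDGFRA 203131_at stood at 3.14, 3.10 and 3.77 in the EMT lines 1, 12 and 14 and at 2.49 in PC3-Epi (difference 0.85 ± 0.27, limma adjusted p = 0.0978). The other PDGFRA probe sets differed by 0.07, 0.15 and 0.41. PDGFRB 202273_at stood at 4.22, 4.07 and 4.17 in the EMT lines and at 3.88 in PC3-Epi (difference 0.28 ± 0.15, limma adjusted p = 0.282). All 3 lines lay above PC3-Epi on PDGFRB and on PDGFRA 203131_at, within the range that the bacterial controls also covered.

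The second comparison set sh4 against Scr within PC3-EMT1 and within PC3-EMT14, to ask which receptors differ once ZEB1 is silenced. With 2 pairs of arrays and the line as a block, limma called no member and 0% of all 54613 probe sets, and the smallest adjusted p was 0.171 over all probe sets and 0.376 among the members. At an unadjusted p under 0.05 there were 8 member probe sets, and 6808 probe sets (12.5%) in all. The values below are therefore given line by line. Under the rule of 2-fold or more in both lines, 1 member was lower and 0 were higher, where 0.0824% of all probe sets were lower and 0.132% higher.

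PDGFRA 203131_at was the member that stood lower by 2-fold or more in both lines. It stood at 5.89 in sh4 and 7.23 in Scr cells of PC3-EMT1, and at 5.61 in sh4 and 7.48 in Scr cells of PC3-EMT14. Both Scr arrays lay above the control level of 6.00 and both sh4 arrays under it. Its level was at least 2.55-fold lower in sh4, counting the sh4 arrays at the control level, and the measured difference was -1.60 ± 0.17 on the log2 scale (limma, n = 2 lines, adjusted p = 0.376). The other PDGFRA probe sets did not follow it. They differed by 0.16 and -0.20 (215305_at), by 0.43 and 0.03 (1554828_at) and by -0.02 and -0.35 (211533_at) in PC3-EMT1 and PC3-EMT14, and all but 1 of their 12 values lay under the control level. The mean over the 4 probe sets differed by -0.39 ± 0.13 (limma, adjusted p = 0.292).

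**Figure D3:**
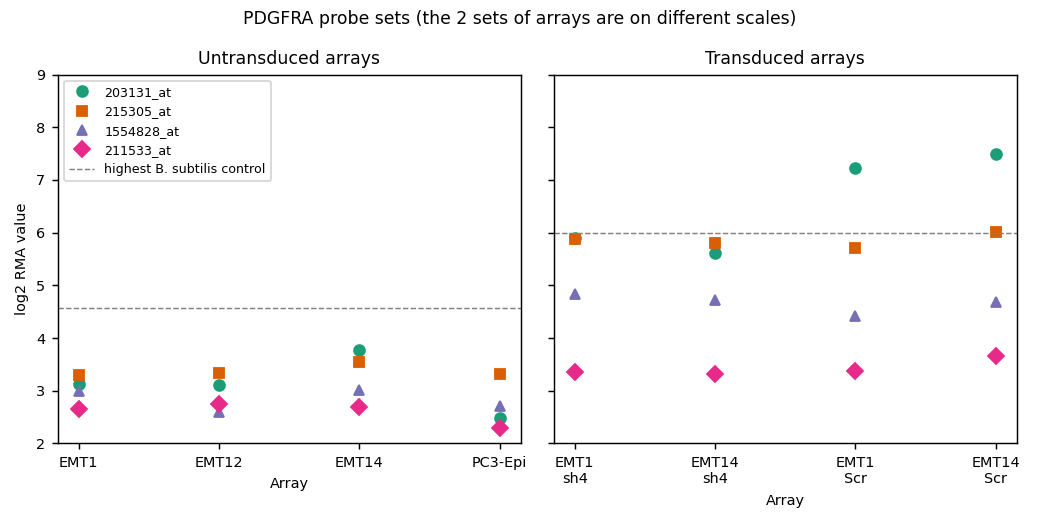
Log2 RMA value (y axis) of the 4 PDGFRA probe sets on the 4 untransduced arrays (left panel) and the 4 transduced arrays (right panel), which are on different scales; the dashed line is the control level of each set. Probe set 203131_at stands at 7.23 and 7.48 in Scr cells and at 5.89 and 5.61 in sh4 cells, while the other 3 probe sets lie near or under the control level throughout.

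EGFR stood higher in sh4 than in Scr cells of both lines on the 5 probe sets that had fallen in the EMT lines. Probe set 201983_s_at stood at 9.64 in sh4 and 8.70 in Scr cells of PC3-EMT1, and at 9.96 in sh4 and 9.47 in Scr cells of PC3-EMT14, differences of 0.94 and 0.49. The differences were 0.73 and 0.31 on 224999_at, 1.02 and 0.35 on 201984_s_at, 0.67 and 0.30 on 211607_x_at, and 0.42 and 0.12 on 210984_x_at. PC3-EMT1 had the larger difference on each of the 5. None passed the test (limma, adjusted p of 0.376 to 0.455). Probe sets 1565484_x_at and 1565483_at also lay above the control level on all 4 transduced arrays but did not follow. In PC3-EMT1 and PC3-EMT14, 1565484_x_at differed by -0.30 and -0.10 and 1565483_at by -1.16 and 0.04. The EGFR probe sets therefore did not all point the same way.

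ERBB3 also stood higher in sh4 cells, by 0.70 in PC3-EMT1 and 0.10 in PC3-EMT14 on 226213_at and by 0.55 and 0.20 on 202454_s_at. The levels on 226213_at were 9.03 in sh4 and 8.34 in Scr cells of PC3-EMT1, and 8.48 in sh4 and 8.38 in Scr cells of PC3-EMT14. The mean difference on 226213_at was 0.40 ± 0.18 (limma, adjusted p = 0.450). ERBB2 216836_s_at differed by 0.03 and -0.14.

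FGFR1 stood lower in sh4 than in Scr cells of both lines on its 4 bright probe sets. On 226705_at it was 8.02 in sh4 and 8.31 in Scr cells of PC3-EMT1, and 8.25 in sh4 and 8.79 in Scr cells of PC3-EMT14, differences of -0.29 and -0.53. They were -0.06 and -0.21 on 211535_s_at, -0.11 and -0.33 on 210973_s_at, and -0.16 and -0.03 on 207937_x_at. The probe set 215404_x_at, which lay above the control level on the transduced arrays only, differed by 0.20 and 0.34, so the FGFR1 probe sets did not all point the same way.

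MST1R stood at 8.73 in sh4 and 8.28 in Scr cells of PC3-EMT1, and at 9.02 in sh4 and 8.67 in Scr cells of PC3-EMT14. The differences of 0.45 and 0.35 were close to each other, with a mean of 0.40 ± 0.11 (limma, adjusted p = 0.379). AXL did not run the opposite way to its EMT difference. It stood higher in sh4 cells of both lines, by 0.50 and 0.12 on 202686_s_at and by 0.45 and 0.21 on 202685_s_at. MET differed by 0.21 and 0.17 on 203510_at and by 0.56 and 0.05 on 213816_s_at, but by 0.27 and -0.08 on 211599_x_at and by 0.24 and -0.14 on 213807_x_at, so the lines pointed opposite ways on the last 2. PDGFRB differed by 0.13 and 0.15. IGF1R differed by -0.43 and -0.32 on 203627_at, by -0.47 and -0.07 on 225330_at and by -0.31 and 0.34 on 203628_at.

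Of the 14 probe sets called in the EMT lines, 11 differed the opposite way in both lines under sh4, namely all those of EGFR, ERBB3, FGFR1 and MST1R, and the 2 AXL and 1 IGF1R probe sets did not. Among all 6467 probe sets called in the EMT lines, 2800 (43.3%) did so. The 2 comparisons have no array in common, but they use the same lines, and probe sets of 1 gene read the same transcripts, so the 11 stand for 4 genes. Over all members, 28 of 41 (68.3%) differed in the same direction in both lines, where 61% of all probe sets did, and the sh4 and Scr values did not overlap for 21 (51.2%), where 41.5% of all did. The median difference between sh4 and Scr was 0.09 over the members and 0.02 over all probe sets.

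ZEB1 binds E-boxes of the form CACCTG, or CAGGTG on the other strand, and its silencing is the treatment in the second comparison, so the start regions of the members were searched for these letters. RefSeq windows of 300 bases around a start (250 before and 50 after, GRCh38.p14) were at hand for 8 of the 10 genes, 11 windows in all. The motif was found in 2 of the 11, in the windows of MST1R and AXL, where 7231 of 35116 windows of all genes (20.6%) held it. The 250 bases before the start are shown for these 2 windows because they held the motif, with the E-box in capitals. A second AXL window (chr19:41226505-41226804) held no motif. The 2 receptors differed in opposite directions in the EMT lines.
MST1R (chr3:49903874-49904123, minus strand): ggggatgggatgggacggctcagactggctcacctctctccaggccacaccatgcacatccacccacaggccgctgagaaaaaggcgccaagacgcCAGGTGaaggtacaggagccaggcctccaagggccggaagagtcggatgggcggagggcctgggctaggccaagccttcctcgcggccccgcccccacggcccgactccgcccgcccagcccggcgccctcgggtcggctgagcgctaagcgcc
AXL (chr19:41218973-41219222, plus strand): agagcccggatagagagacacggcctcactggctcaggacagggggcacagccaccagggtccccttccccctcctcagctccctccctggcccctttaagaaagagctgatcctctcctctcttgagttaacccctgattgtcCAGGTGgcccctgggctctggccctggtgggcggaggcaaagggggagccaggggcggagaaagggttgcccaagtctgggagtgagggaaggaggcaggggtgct
The E-box of MST1R begins 154 bases before the start, and a second one, not shown, lies 25 bases after it. That of AXL begins 106 bases before the start. In sh4 cells the levels of both genes stood above those of Scr cells in both lines, by the values given above. Members whose windows held no motif went either way. EGFR also stood higher in both lines on the probe sets that had fallen in the EMT lines, while PDGFRA 203131_at and IGF1R 203627_at stood lower in both. A match of letters is no evidence of binding, and windows without one say nothing about the factor.

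The ligands, relays and regulators that surround these receptors were described by 7 lists, each gene by its brightest probe set. Of all 19775 genes, 6.82% rose and 8.36% fell in the EMT lines, with a median difference of 0.10. Among 25 measured receptor ligands 3 rose and 3 fell (median 0.15), and among 31 other receptor tyrosine kinases and co-receptors 1 rose (median 0.14). Of 24 adaptors and signal relays 4 rose and 5 fell (median -0.10), and of 22 inhibitors and feedback genes 6 rose and 2 fell (median 0.25). Of 15 transcriptional targets 3 rose and 1 fell (median 0.25), of 7 IGF binding proteins 5 rose and 1 fell (median 0.64), and of 8 genes for activating HGF and MST1 1 rose and 3 fell (median -0.02). Of the 25 genes named below for this comparison, 19 kept their call without PC3-EMT1, 21 without PC3-EMT12 and 11 without PC3-EMT14.

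NRG2, a neuregulin that binds ERBB3 and ERBB4, was the ligand with the largest difference. It stood at 7.18, 7.79 and 7.73 in the EMT lines 1, 12 and 14 and at 4.05, under the control level, in PC3-Epi, at least 8.03-fold higher in the EMT lines (limma, adjusted p = 0.00077). Its 2 other probe sets rose by 2.59 and 2.89. FGF1 and FGF5, ligands of FGFR1, rose by 1.78 ± 0.32 and 1.54 ± 0.23, and PDGFC, a ligand of PDGFRA, fell by 0.93 ± 0.18. The other probe sets differed by 0.42 and 1.31 for FGF1, by 0.55 and 1.79 for FGF5 and by -0.40 for PDGFC, and the call of PDGFC was lost when any EMT line was left out (limma, adjusted p of 0.055 to 0.106). In PC3-EMT1 and PC3-EMT14 the differences between sh4 and Scr were -0.70 and -0.63 for NRG2, -0.01 and -1.25 for FGF1, 0.13 and -0.39 for FGF5, and 0.28 and 0.47 for PDGFC, so FGF5 pointed opposite ways in the 2 lines.

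KDR, the main receptor for VEGF in endothelial cells, was the 1 gene of the list of other receptors that rose, at 7.66, 8.62 and 7.81 in the EMT lines and 3.98, under the control level, in PC3-Epi. It was at least 11.1-fold higher in the EMT lines (limma, adjusted p = 0.00159) and differed by -0.75 and -1.43 between sh4 and Scr cells of PC3-EMT1 and PC3-EMT14. Among the relays, SHC1, an adaptor that links receptors to RAS, rose by 1.29 ± 0.15. IRS2, a docking protein of IGF1R, fell by 1.05 ± 0.14 and GRB10, an adaptor that dampens IGF1R signals, by 1.12 ± 0.21. GRB14, a relative of GRB10, stood at 2.66 to 2.83 in the EMT lines and at 4.66, barely above the control level, in PC3-Epi.

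Feedback inhibitors moved in both directions. CBLC, an epithelial ubiquitin ligase of the CBL family that binds activated EGFR, stood at 4.33, 3.78 and 3.93 in the EMT lines, all under the control level, and at 7.24 in PC3-Epi. It was at least 6.39-fold lower in the EMT lines (limma, adjusted p = 0.000678), on 1 of 2 probe sets, and the other differed by 0.20. SPRY4, an inhibitor of RAS-MAP kinase signals, rose by 2.36 ± 0.29, DUSP5, a nuclear phosphatase of ERK, by 1.55 ± 0.15 and SOCS2, a suppressor of cytokine signals, by 1.34 ± 0.26. The other SOCS2 probe sets differed by 0.02 and 1.77, and its call was lost without PC3-EMT1 or PC3-EMT12 (limma, adjusted p of 0.081 and 0.077). Of the transcriptional targets, EPHA4 rose by 1.77 ± 0.26, PLAUR, the urokinase receptor, by 1.12 ± 0.19 and ETV5, an ETS factor downstream of FGF receptors, by 1.02 ± 0.15. EGR1, an immediate early factor, stood at 4.19 to 4.33 in the EMT lines and at 5.02 in PC3-Epi, at least 1.38-fold lower in the EMT lines. The other probe sets of EPHA4 differed by -0.05 to 1.39 and those of ETV5 by 0.40 to 1.15.

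The IGF binding proteins, which hold IGF1 and IGF2 away from IGF1R or present them to it, differed most often among the lists. IGFBP2 stood at 3.85, 3.58 and 4.42 in the EMT lines, all beneath the control level, and at 8.06 in PC3-Epi, at least 11.3-fold lower in the EMT lines (limma, adjusted p = 0.000826). IGFBP1 stood at 6.11, 5.91 and 6.62 in the EMT lines and at 4.27, under the control level, in PC3-Epi, at least 3.14-fold higher, although its other probe set differed by -0.03. IGFBP4 rose by 1.63 ± 0.40 (adjusted p = 0.0466) and IGFBP6 by 0.71 ± 0.16. Without PC3-EMT14 IGFBP4 and IGFBP6 lost their calls (limma, adjusted p of 0.216 and 0.171), and IGFBP2 and IGFBP1 did not.

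Genes that process HGF and MST1, which are made as inactive precursors, had the largest differences of the 7 lists. PLAT, the tissue plasminogen activator, stood at 12.92, 12.57 and 12.73 in the EMT lines and 7.41 in PC3-Epi, a rise of 5.33 ± 0.18 (limma, adjusted p = 5.39e-05). ST14, the membrane protease matriptase, stood at 5.21, 5.39 and 5.62 in the EMT lines and 10.28 in PC3-Epi, a fall of 4.87 ± 0.19 (limma, adjusted p = 7.14e-05). Its 2 other probe sets differed by -5.29 and 0.17. SPINT1, an inhibitor of these proteases, fell by 1.14 ± 0.16, and TMPRSS2, a membrane serine protease, by 1.09 ± 0.17. The 3 other TMPRSS2 probe sets differed by -1.68 to 0.35, and 1 of them was called lower. SPINT1 was the 1 listed gene that differed 2-fold or more in both lines under sh4, at 10.12 in sh4 and 9.06 in Scr cells of PC3-EMT1 and at 10.21 in sh4 and 9.17 in Scr cells of PC3-EMT14. ST14 differed by 0.67 and 1.06 and TMPRSS2 by 0.77 and 0.91 in those lines, whereas PLAT differed by -0.33 and -0.16.

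**Figure D4:**
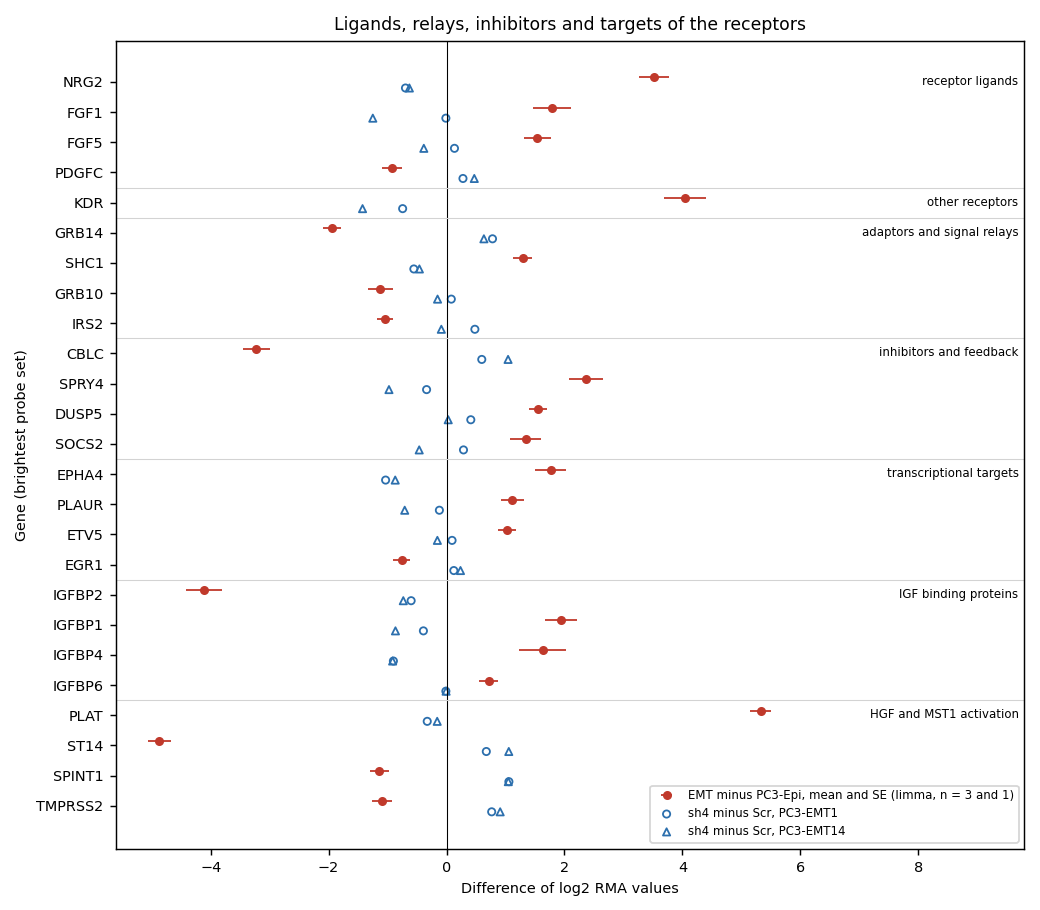
Difference of log2 RMA values (x axis) for the named genes of the 7 lists (rows). Filled points are EMT minus PC3-Epi with the SE from limma, and open symbols are sh4 minus Scr in PC3-EMT1 (circles) and PC3-EMT14 (triangles). PLAT at 5.33 and ST14 at -4.87 lie farthest from 0, and SPINT1 lies at 1.06 and 1.05 under sh4.

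Pattern likeness was described for the brightest probe set of ERBB3, MST1R and AXL by Pearson's r over the 8 arrays, after the mean of each set of 4 was subtracted, among 880 probe sets that spanned 2-fold or more in both sets. The 8 points share lines and a scaling within each set, so r is a description only. ERBB3 was most like S100A14, a calcium-binding protein (r = 0.989), SH3YL1 (r = 0.983) and FGD6 (r = 0.982). These r values rest largely on the 1 PC3-Epi array, where ERBB3 226213_at stood at 9.85 against 7.24 to 7.49 in the EMT lines. MST1R was most like ST6GALNAC1, a sialyltransferase (r = 0.995), SBF2-AS1 (r = 0.992) and MCOLN3, a lysosomal cation channel (r = 0.990). AXL was most like IL1RL1, the receptor for interleukin 33 (r = 0.958), FOXA2 (r = 0.902) and NAV3 (r = 0.898). No likeness is given for PDGFRA and PDGFRB, whose values on the untransduced arrays lay under the control level.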

How the data were processed

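Per the labels, the authors processed the arrays by RMA in affy (version not given in the sources used here) to log2 expression values, and these deposited log2 values, 1 column per array, were used unchanged. RMA subtracts background, normalises arrays and summarises probes, which compresses low values. The number of arrays limits the precision. Of 54675 probe sets, 62 were controls and 54613 were tested, 41091 of them with 1 gene symbol, 1801 with several and 11721 with none, named from GEO's platform annotation.

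Differences were tested in R 4.3.3 with limma 3.58.1 (eBayes, Benjamini-Hochberg over all probe sets, threshold 0.05), with no filter on level. EMT against PC3-Epi used the 4 untransduced arrays (2 residual degrees of freedom, prior 4.74). sh4 against Scr used the 4 transduced arrays with the line as a block (1 residual degree of freedom, prior 2.99), since the number in the labels is that of the cell line. The deviations of same-numbered arrays correlated at 0.362. The control level is the highest value of 27 B. subtilis probe sets in a set of arrays. "At least" folds set the dimmer group's arrays at that level where they lay under it.

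All member probe sets were reported. From each list the 4 genes with the largest difference among those called in EMT lines were named, and the 4 among those called or 2-fold in both lines under sh4, and for likeness the 3 genes with the highest r. The members, lists and tests were chosen with earlier results of these data known. Listed genes beyond those measured were not analysed here. Alternatives were a filter on dim probe sets, median centring, quantile normalization, 32 added on the linear scale, a variance trend, gene means, other arrays or no block in the fit, and leaving out each line.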

Additional observations from a re-analysis of the deposited data

Results flagged for a closer look

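EGFR 1565483_at, which lay near the control level on the untransduced arrays and above it on all 4 transduced arrays, differed between the lines under sh4. The difference between sh4 and Scr was -1.157 in PC3-EMT1, with 6.43 in sh4 and 7.59 in Scr cells, and 0.038 in PC3-EMT14, with 6.58 in sh4 and 6.54 in Scr cells. It was singled out because the 2 lines pointed opposite ways and lay more than 1 apart on the log2 scale. The difference between lines was not tested, since each line has 1 array per group. The value rests on the Scr array of PC3-EMT1. The 5 EGFR probe sets that had fallen in the EMT lines stood higher in sh4 cells of both lines. EGFR 1565484_x_at stood lower in both, by 0.30 and 0.10.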

How the results depend on the processing

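No member changed direction among those called. For EMT against PC3-Epi, 14 member probe sets were called, and 10 to 18 with the filter, median centring, quantile normalization, 32 added or a variance trend. Averaging probe sets per gene gave 5 member genes out of 10, where 3254 of all 19775 genes were called. IGF1R was not among the 5 (difference -0.33, limma adjusted p = 0.158). Leaving out a line gave 2 to 13, with 2 without PC3-EMT14 and 8 without PC3-EMT1. Over all probe sets 6467 were called, 3860 with 32 added, 3254 genes with gene means, and 747 to 5330 when a line was left out (747 without PC3-EMT14, 2579 without PC3-EMT1). Of the single values recomputed, 275 kept their side of the threshold, 29 lost a call and 8 gained one.

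For sh4 against Scr no probe set was called with the line as a block. Over all probe sets 1 was called with no replicate block, 222 in the fit of 6 arrays with the replicate block, 21 with median centring, 22 with quantile normalization, 15 genes with gene means, and 2 to 17 when a line was left out in a fit that pools the spread of all groups, where the lone sh4 and Scr arrays are assumed to vary like the EMT lines. Among the members the count was 1 in the fit of 6 arrays, PDGFRA 203131_at (adjusted p = 0.0259), and 0 in the others. That fit takes part of its spread from the untransduced arrays, which are on another scale and hold this probe set under the control level. The cause of these differences was not tested.

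PC3-Epi has 1 array and sh4 and Scr have 2 each, so small differences could not be told from the spread. Values under the control level limit what can be said of PDGFRA and PDGFRB.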
